A study of Mus musculus with 32 samples.

Results

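A set of 10 transcripts that carry iron into, through and out of a muscle were followed here in bulk RNA-seq of the mouse tibialis anterior, a fast muscle of the lower leg. They were Tfrc, Steap3, Slc11a2 and Trf (uptake), Fth1 and Ftl1 (storage), Hmox1 (release of iron from haem), Slc40a1 (export), and Aco1 and Ireb2 (the RNA-binding regulators). They were chosen by gene name, and all 10 were among the 54532 genes of the count table and among the 17121 genes that passed a filter on low counts. Tfrc was picked for its higher level in old than in young muscle at day 35, so comparisons that use its level in young or old vehicle muscle at day 35 are given as a description and not tested.

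The study profiled C57BL/6J mice in 8 groups of 4 libraries each. Uninjured muscle came from young and from old vehicle-treated mice, and its libraries carry the label PBS, a salt buffer. Muscle taken 7 or 35 days after injury with BaCl came from young vehicle-treated, old vehicle-treated and old BI01-treated mice, BI01 being named by the submitters as a senolytic that blocks binding of p53 to MDM2. Senolytics are meant to kill senescent cells, which are cells that have stopped dividing for good. The labels give the ages only as young and old, no dose, and no statement that the 4 libraries of a group came from separate animals. The p-values below therefore measure the spread between libraries.

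Cells take up iron mostly as transferrin, the plasma iron carrier, which binds the transferrin receptor Tfrc and is internalised. Ferritin stores iron inside the cell, and ferroportin (Slc40a1) is the known exporter of iron. When iron is scarce, the proteins encoded by Aco1 and Ireb2 bind hairpins called iron-responsive elements. A hairpin before the coding sequence then blocks translation, and hairpins after it protect the transcript from decay. Muscle holds much iron in myoglobin and mitochondria, and macrophages that clear damaged fibres recycle it.

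The hairpin was searched for in 1 transcript per gene, on the transcript strand, as a C, any 5 bases, a loop of CAGTGN and 5 bases able to pair with those before the loop, with G pairing to T allowed. These sequences are shown because they mark where the searched transcripts held a match, and on which side of the coding sequence. The loop is in capitals, and positions count from the first base of the transcript in GENCODE vM39.
Fth1, before the coding sequence, bases 87 to 111: ttcctgcttcaaCAGTGCttgaacg
Ftl1, before the coding sequence, bases 78 to 102: gtcttgcttcaaCAGTGTttgaacg
Slc40a1, before the coding sequence, bases 166 to 190: caacttcagctaCAGTGTtagctaa
Tfrc, after the coding sequence, bases 3320 to 3344: aattatcggaagCAGTGCcttccat
Tfrc, after the coding sequence, bases 3699 to 3723: cattatcgggagCAGTGTcttccat
Tfrc, after the coding sequence, bases 3764 to 3788: ctatatcggagaCAGTGAtctccat
Tfrc, after the coding sequence, bases 3811 to 3835: aattatcgggaaCAGTGTttcccat
Fth1, Ftl1 and Slc40a1 each held 1 match before the coding sequence, and Tfrc held 4 after it. Among all genes, 24 of 20696 (0.116%) held a match before the coding sequence and 124 of 21537 (0.576%) after it. The transcripts searched for the other 6 members held none, which says only that these letters are not in those stretches. An element of another shape, or in another transcript of the same gene, would be missed. A match is a description of sequence and was not tested for binding.

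Library totals ran from 14129350 to 30439358 counts, and levels are given as CPM, the counts of a gene per 1e6 counts of its library, after scaling by TMM factors of 0.673 to 1.87. These factors differed most between uninjured and day 7 muscle: without them, the median fold change over all genes moved by 0.88 (young) and 1.00 (old) on the log2 scale at day 7, and by 0.20 between old and young uninjured muscle. A direction that turns with this choice is named as such below. Libraries are numbered as in the count table, whose numbers are not the replicate numbers of the sample titles. Young uninjured libraries 1 and 3 stood apart from 2 and 4 in several of the genes described here, and old vehicle day 7 library 7 stood apart from its group, with 9560 CPM of mature fast fibre markers against 47315 to 64113 in the other 3. The uninjured columns are named as belonging to the 35-day collection. In comparisons of day 7 with uninjured muscle, injury and collection therefore cannot be told apart. In such bulk samples fewer cells of a type and less RNA per cell cannot be told apart either.

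Per kilobase of gene length, Fth1 was the most abundant member, with a mean of 1055 on a scale of CPM per kilobase (FPKM) over the 32 libraries. Ftl1 followed with 131 FPKM, Tfrc with 36.6 and Hmox1 with 16.8. Steap3, Aco1, Slc11a2, Ireb2 and Slc40a1 lay between 3.84 and 6.82 FPKM. Trf, which is made mostly by the liver, was lowest at 0.660 FPKM.

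**Figure D1:**
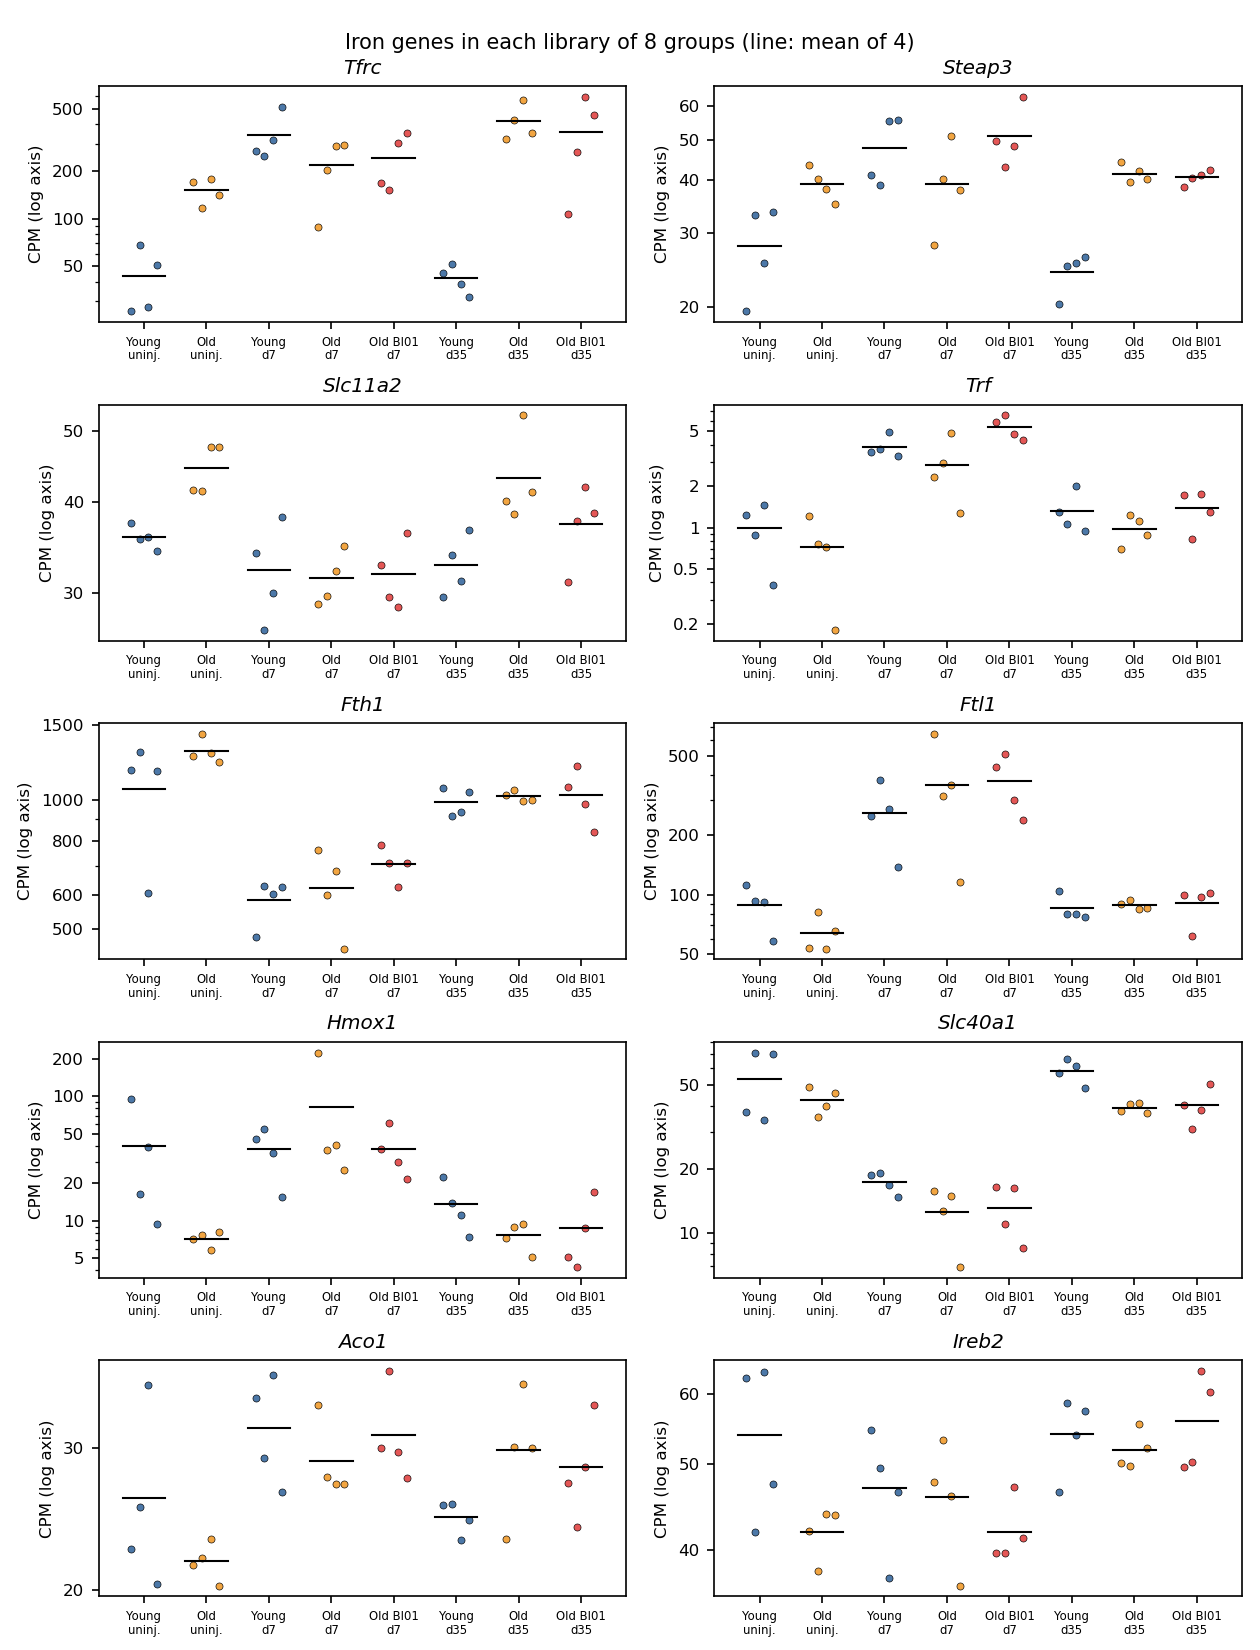
Level of each iron gene in CPM (log axis) in each of 4 libraries (points, in the order of the table) of 8 groups, with the group mean as a line; blue is young vehicle, orange old vehicle and red old BI01. Tfrc averages 43.2 CPM in young uninjured and 41.9 CPM in young day 35 muscle. It is above 100 CPM in all but 1 library of the other groups, and was chosen on its day 35 vehicle levels. Slc40a1 and Fth1 are lower and Ftl1 is higher at day 7.

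More of the 10 genes were called at day 7 after injury than between the ages. At day 7 in young muscle Tfrc, Ftl1, Steap3 and Trf were called higher and Slc40a1 and Fth1 lower, by edgeR's quasi-likelihood test at an adjusted p under 0.05. Over all 17121 genes the same comparison called 33.3% higher and 27.5% lower. At day 7 in old vehicle muscle Hmox1, Ftl1, Trf and Aco1 were called higher and Slc40a1, Fth1 and Slc11a2 lower, against 34.4% of all genes higher and 29.8% lower. Counts of 6 and of 7 among 10 are near those backgrounds. The median log2 fold change of the members was 0.10 in young and 0.27 in old muscle, beside 0.17 and 0.14 over all genes.

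Between old and young uninjured muscle, Tfrc and Steap3 were called higher and Hmox1 lower, beside 5.79% of all genes higher and 7.65% lower. With library size alone the split of all calls between the ages went from 992 higher and 1310 lower to 1952 higher and 552 lower. Its calls changed without young uninjured libraries 1 and 3, a choice made after seeing the values. Then 0 members and 134 genes were called in place of 3 and 2302. Leaving both out also shrinks the group, and no other pair was left out. The values of these libraries and the smaller group therefore cannot be told apart. Without library 1 alone, 1 member was called. The age difference in the day 7 response, tested as an interaction, called Hmox1 higher and Tfrc and Steap3 lower, beside 3.22% of all genes higher and 4.48% lower, and called 0 members without those libraries.

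None of the 9 members tested was called at day 35 against uninjured muscle, in young mice (15.7% of all genes called in either direction) or in old vehicle mice (5.64%). At an unadjusted p under 0.05, edgeR held 1 and 2 of the 9, beside 5101 and 2933 of all 17121 genes. DESeq2 called 1 (Hmox1) and 0 members at the adjusted threshold. Of all genes it called 1312 higher and 2021 lower in young, and 718 higher and 535 lower in old vehicle muscle. In old vehicle muscle Fth1, Ftl1, Aco1 and Ireb2 had no overlap between day 35 and uninjured libraries, at log2 differences of -0.35, 0.47, 0.46 and 0.31. The share of all genes without such overlap was not counted, so this does not set these genes apart. Between old and young muscle at day 7, 0 of 10 members were called, beside 2.43% of all genes. At an unadjusted p under 0.05 edgeR held 0 members there, beside 3234 genes. DESeq2 called 0 members, beside 196 genes higher and 629 lower. Day 35 was also compared with day 7, in comparisons that share their day 7 libraries with those above. In young muscle 2 of 9 members were called higher and 4 lower (26.0% and 29.3% of all genes). In old vehicle muscle 3 of 9 were higher and 3 lower (27.5% and 31.4%), and in old BI01 muscle 3 of 10 were higher and 3 lower (26.2% and 29.4%). Slc40a1 and Fth1 were among the higher and Ftl1 and Trf among the lower in each of the 3 arms.

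**Figure D2:**
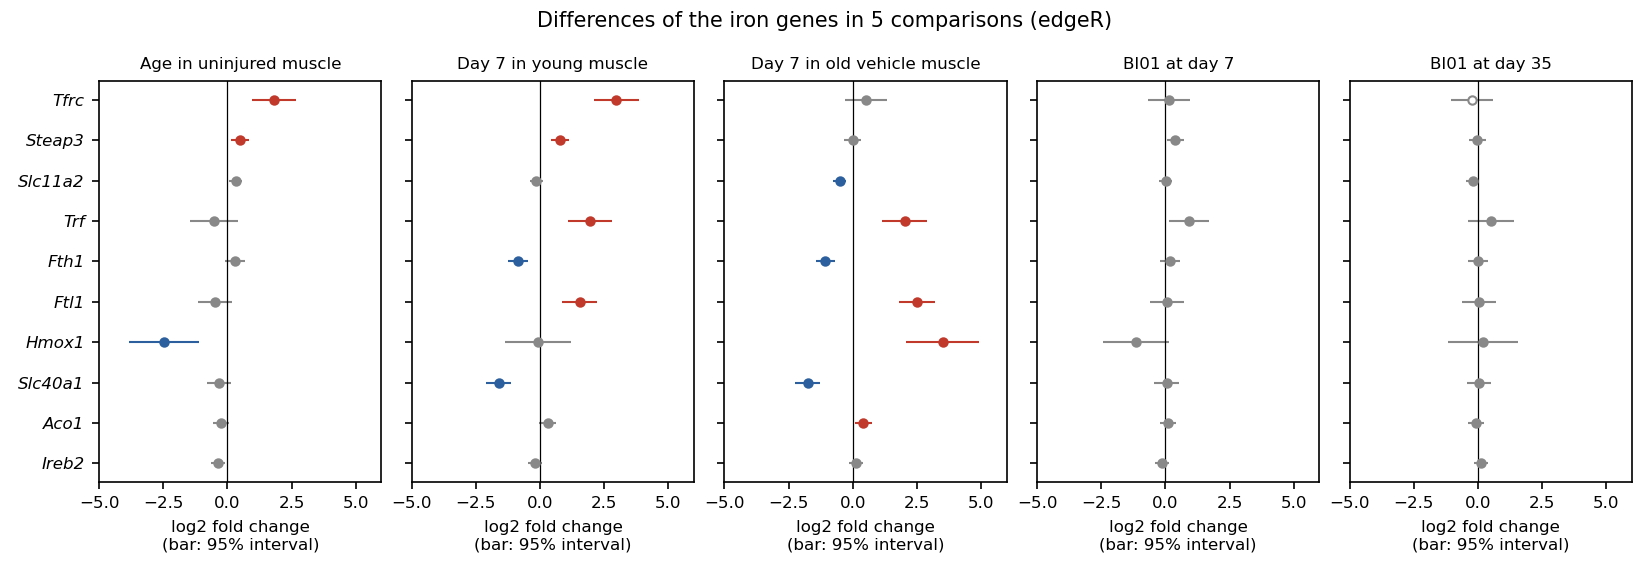
Log2 fold change of each iron gene (point) with its 95% interval (bar) in 5 comparisons fitted with edgeR over all 32 libraries; red is called higher, blue called lower, grey not called, and the open point (Tfrc at day 35) was not tested. In the day 7 panels Slc40a1 and Fth1 lie to the left and Ftl1 and Trf to the right at both ages, and no gene is called in the BI01 panels.

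Tfrc, the transferrin receptor (ENSMUSG00000022797, chr16:32608920-32632794 in mm10), was lower in young than in old uninjured muscle. The age difference at day 35 chose this gene and is no separate result. Its levels in young uninjured muscle were 25.9, 68.4, 27.7 and 50.9 CPM, and in old uninjured muscle 172, 118, 179 and 141 CPM. The groups did not overlap, and the fold change was 3.52 (log2 1.82, SE 0.41, edgeR adjusted p = 0.00418). Without young uninjured libraries 1 and 3, which had its lowest levels, the log2 difference was 1.36 and the call was lost (adjusted p = 0.262).

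At day 7 the young libraries stood at 271, 251, 319 and 515 CPM, all above every young uninjured library. That was a rise of 7.84-fold (log2 2.97, SE 0.43, adjusted p = 1.01e-06 by edgeR). Old vehicle libraries at day 7 stood at 88.6, 206, 289 and 294 CPM and overlapped old uninjured muscle (log2 0.53, 95% interval -0.29 to 1.35, adjusted p = 0.253). With library size alone this difference passed the threshold (adjusted p = 0.0011). The response to injury differed by age by a log2 of -2.44 (SE 0.57, edgeR adjusted p = 0.0114), a call lost without young uninjured libraries 1 and 3 (log2 -1.99, adjusted p = 0.159). At day 7 itself old and young muscle did not differ beyond their spread (log2 -0.63, adjusted p = 0.41).

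At day 35, the contrast that chose this gene, young libraries had 45.5, 51.8, 38.5 and 31.9 CPM and old vehicle libraries 319, 425, 568 and 349 CPM. The fitted difference of log2 3.31 (SE 0.44) is a description. Every old vehicle library at day 35 was above every old uninjured one, at a log2 difference of 1.45, whereas young muscle at day 35 overlapped young uninjured muscle (log2 -0.04). Old vehicle libraries at day 35 were also all above those at day 7 (log2 0.92). These differences use the libraries that chose the gene and were not tested. Old BI01 libraries at day 35 had 107, 267, 596 and 455 CPM, the widest spread of any group for this gene (CV 60.0%). Against old uninjured muscle, with which they overlapped, the log2 difference was 1.23 (SE 0.40, edgeR adjusted p = 0.059). DESeq2 gave an adjusted p of 0.0167, library size alone 0.0316, and leaving out library 6, the lowest, 0.0141. On the other side, Tfrc was not called with limma voom or with only the compared groups fitted. Its edgeR adjusted p was 0.122 with the column number as a replicate block and 0.273 without BI01 library 8. None of the 10 members was called by edgeR in that comparison, where 8.10% of all genes were. At an unadjusted p under 0.05 edgeR held 5 members, beside 3536 of all 17121 genes. DESeq2 called 2 members (Tfrc and Ireb2), beside 1014 genes higher and 768 lower. The 8 group means ran from 415 CPM in old vehicle day 35 to 41.9 CPM in young day 35. Along that order, neighbouring groups overlapped except old uninjured and young uninjured muscle.

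Steap3 (ENSMUSG00000026389), a reductase that turns transferrin-derived iron into the form that leaves the endosome, lies at chr1:120190757-120272705. Young uninjured libraries had 19.5, 33.0, 25.5 and 33.7 CPM and old uninjured ones 43.4, 40.4, 38.1 and 35.2 CPM. The groups did not overlap (log2 0.49, SE 0.17, edgeR adjusted p = 0.044). That call was lost with DESeq2 (adjusted p = 0.0501), with limma voom (0.0506), with RLE size factors (0.0623), with no filter (0.0728), when only the compared groups were fitted (0.0957) and without young uninjured libraries 1 and 3 (0.688). Leaving out a single library also ended it for 5 of 8 libraries, with young uninjured 1 giving 0.197, young uninjured 3 giving 0.14, and old uninjured 6, 7 and 8 giving 0.115, 0.094 and 0.0689. In young muscle at day 7 it rose to 41.3, 39.0, 55.4 and 55.7 CPM (log2 0.78, SE 0.17, adjusted p = 1.62e-04). In old vehicle muscle the means before and at day 7 were both 39.3 CPM. The difference between these responses was a log2 of -0.78 (SE 0.23, edgeR adjusted p = 0.036). It did not pass with only the compared groups fitted (0.146), with RLE size factors (0.0523), with no filter (0.0663), without young uninjured libraries 1 and 3 (0.33), or without any of 10 single libraries of the 16. By day 35 young libraries were at 20.3 to 26.3 CPM, a fall of 0.98 on the log2 scale from day 7 (adjusted p = 9.78e-06), and old vehicle libraries at 39.6 to 44.1 CPM. Those old and young libraries at day 35 did not overlap (log2 0.77), and neither did those of Slc11a2 (log2 0.39) and Slc40a1 (log2 -0.58). These differences are given without a test. The share of all genes without overlap there was not counted, so the lack of overlap does not set these genes apart.

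Slc11a2 (ENSMUSG00000023030, chr15:100387898-100425072), the divalent metal transporter that passes iron out of the endosome, varied least among the uptake genes. Its means were 35.8 ± 1.30 CPM (SD, n = 4) in young and 44.5 ± 3.53 CPM in old uninjured muscle, without overlap but without a call (edgeR adjusted p = 0.0888). In old vehicle muscle it was at 29.0, 29.7, 32.2 and 34.8 CPM at day 7, all below the old uninjured libraries. The log2 difference was -0.50 (SE 0.12, adjusted p = 7.45e-04), which turned to 0.50 with library size alone. It was higher again at day 35 (log2 0.46, adjusted p = 0.00222), a direction that likewise turned with library size alone. Trf (ENSMUSG00000032554, chr9:103204001-103230444), the transferrin transcript itself, was near 1 CPM in uninjured muscle. It rose in young muscle from 0.996 ± 0.472 to 3.87 ± 0.733 CPM at day 7 (SD, n = 4; log2 1.94, edgeR adjusted p = 2.51e-04) and in old vehicle muscle from 0.720 ± 0.425 to 2.85 ± 1.51 CPM (log2 2.02, adjusted p = 1.49e-04). It fell again by day 35 in all 3 arms, by log2 differences of -1.54, -1.53 and -1.94. Its counts per library ran from 4 to 235, so its levels are the least precise of the 10.

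The ferritin subunits moved in opposite directions at day 7. Fth1 (ENSMUSG00000024661, chr19:9982703-9985092), the heavy subunit with the ferroxidase centre, had 1177, 1291, 605 and 1167 CPM in young uninjured muscle and 477, 629, 603 and 626 CPM in young muscle at day 7. Young uninjured library 3 lay among the day 7 libraries, and the other 3 lay above them (log2 -0.86, SE 0.19, edgeR adjusted p = 2.21e-04). Old uninjured libraries had 1264, 1426, 1289 and 1229 CPM, and old vehicle day 7 libraries 764, 598, 683 and 449 CPM, without overlap (log2 -1.06, SE 0.19, adjusted p = 1.30e-05). Under library size alone these differences were 0.01 and -0.04 and neither was called, so the fall of Fth1 is relative to the bulk of genes and not to the library total. From day 7 to day 35 it rose by log2 0.76, 0.71 and 0.53 in young, old vehicle and old BI01 muscle, values that became 0.11, -0.26 and -0.35 with library size alone and were then not called. In BI01 muscle the call was also lost without day 35 library 7 (0.0683) or day 7 library 3 (0.054).

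Ftl1 (ENSMUSG00000050708, chr7:45457944-45459884), the light subunit, had 112, 92.8, 91.8 and 58.6 CPM in young uninjured muscle and 248, 379, 270 and 137 CPM at day 7. The rise was 2.91-fold (log2 1.54, SE 0.33, adjusted p = 1.96e-04 by edgeR). In old vehicle muscle it went from 54.1, 81.8, 53.5 and 65.4 CPM to 646, 313, 357 and 116 CPM, a rise of 5.61-fold (log2 2.49, SE 0.34, adjusted p = 2.63e-07). The highest of these, library 7, is the library with few fast fibre transcripts. At day 35 Ftl1 lay between 61.8 and 104 CPM in the 12 libraries, below every day 7 library of every arm. The difference between the ages in this response did not pass (log2 0.95, adjusted p = 0.202). The table lists 14 further ferritin copies and pseudogenes, 9 of them without a count. Ftl1-ps1 took 1644 counts in all, 1.25% of those of Ftl1, and how the authors' counting split reads between such copies is not known, so the ferritin levels carry that uncertainty.

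The ratio of Fth1 to Ftl1 within a library does not depend on the scaling between libraries. It was 12.7 ± 5.65 in young and 20.9 ± 3.31 in old uninjured muscle (SD, n = 4), and 2.60 ± 1.33, 2.22 ± 1.16 and 2.06 ± 0.68 at day 7 in young, old vehicle and old BI01 muscle. At day 35 it was 11.8 ± 1.34, 11.5 ± 0.252 and 12.1 ± 5.01. All day 7 libraries, from 1.18 to 4.56, lay below all uninjured and day 35 libraries, from 6.59 to 24.1. An exact two-sided permutation test gave p = 0.0286 at each age for day 7 against uninjured muscle, the smallest that 4 against 4 libraries allow, and 0.0827 after adjustment over the 55 ratio tests.

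**Figure D3:**
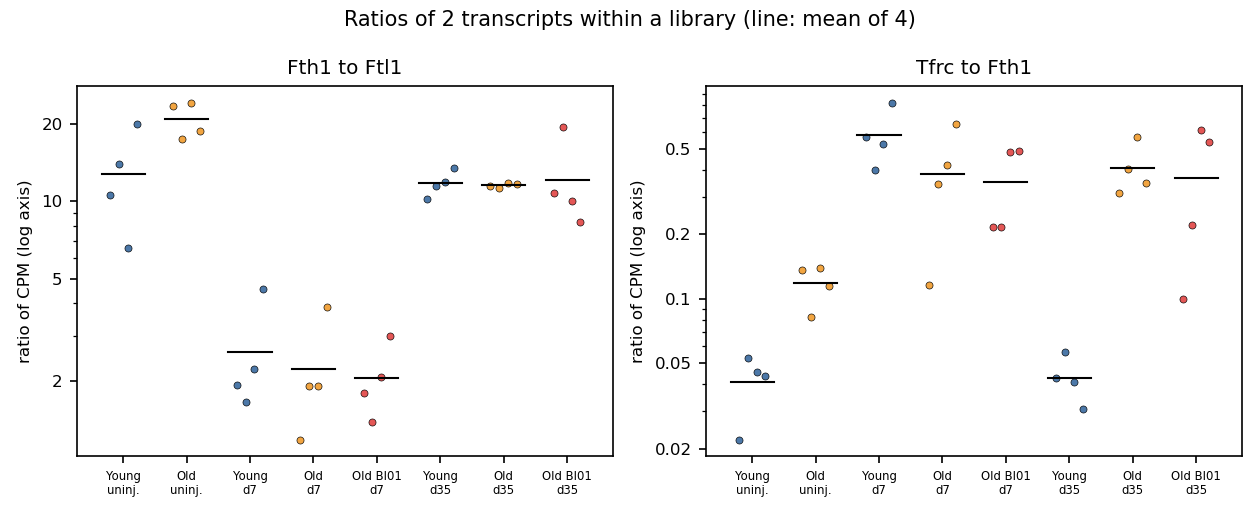
Ratio of Fth1 to Ftl1 (left) and of Tfrc to Fth1 (right) within each library, on log axes, in 8 groups of 4 libraries (points) with the group mean as a line. The Fth1 to Ftl1 ratio is below 4.56 or at it in every day 7 library and at least 6.59 in every other. The Tfrc to Fth1 ratio is lowest in young uninjured and young day 35 muscle. The day 35 vehicle libraries chose Tfrc, so that ratio is a description there.

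Slc40a1 (ENSMUSG00000025993, chr1:45908068-45926523), the iron exporter ferroportin, was lower at day 7 at both ages, and the call held under every alternative run, though the size of the change did not. Uninjured libraries had 37.5, 71.4, 34.2 and 70.1 CPM in young and 49.0, 35.4, 40.0 and 46.0 CPM in old muscle. At day 7 young libraries had 18.8, 19.3, 16.9 and 14.8 CPM, and old vehicle libraries 15.9, 12.7, 15.0 and 6.91 CPM, below every uninjured library. Exporter transcripts fell 3.05-fold in young (log2 -1.61, SE 0.24, edgeR adjusted p = 7.93e-07) and 3.37-fold in old muscle (log2 -1.75, SE 0.24, adjusted p = 1.73e-07). At day 35 levels were 48.6 to 66.2 CPM in young, 37.0 to 41.0 CPM in old vehicle and 31.1 to 50.9 CPM in old BI01 muscle. The rise from day 7 was a log2 of 1.74, 1.63 and 1.61, each called. Scaling by library size alone made the falls -0.71 (adjusted p = 0.0159) and -0.72 (0.0128), and the rises 1.06, 0.66 and 0.73. The age difference in the day 7 response was small (log2 -0.14, 95% interval -0.81 to 0.52).

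Hmox1 (ENSMUSG00000005413, chr8:75093621-75100589), the inducible haem oxygenase that frees iron from haem, had the widest spread within a group of the 10 genes, a CV of 116% in old vehicle muscle at day 7. Young uninjured libraries ranged over 94.5, 16.6, 39.3 and 9.46 CPM, with the highest values in libraries 1 and 3. Old uninjured libraries had 7.09, 7.64, 5.84 and 8.09 CPM, below all of them. The log2 difference of -2.47 (SE 0.67, edgeR adjusted p = 0.0148) was not called with limma voom (0.0672), nor without young library 1 (0.137). It was -0.84 without libraries 1 and 3 (adjusted p = 0.737).

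At day 7 old vehicle libraries had 225, 36.8, 40.7 and 25.8 CPM, a rise of log2 3.51 over old uninjured muscle (SE 0.69, edgeR adjusted p = 8.79e-05). The rise stayed called when library 7, the highest, was left out, at a log2 of 2.25 (adjusted p = 0.00147). Young muscle at day 7 had 45.5, 54.4, 35.4 and 15.7 CPM and overlapped its uninjured libraries (log2 -0.08, adjusted p = 0.917). The response differed by age by a log2 of 3.60 (SE 0.91, adjusted p = 0.0183). That call did not pass with limma voom (0.0602), with only the compared groups fitted (0.0786), without old day 7 library 7 (0.0712), without young uninjured library 1 (0.0748) or without libraries 1 and 3 (log2 1.97, 0.347). From day 7 to day 35 it fell in old vehicle muscle (log2 -3.41, adjusted p = 1.42e-04, and -2.16 without day 7 library 7) and in old BI01 muscle (log2 -2.08, adjusted p = 0.00934). In young muscle the value was -1.46, which did not pass by edgeR (0.0562). Hmox1 was called there with limma voom, with DESeq2, with only the compared groups fitted and with library size alone. Its edgeR adjusted p was 0.0419 without young day 35 library 1, 0.0366 without young day 7 library 7 and 0.144 without young day 35 library 4.

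The RNA-binding regulators Aco1 and Ireb2 had group means of 21.7 to 31.8 CPM and 42.0 to 56.0 CPM. Aco1 (ENSMUSG00000028405, chr4:40143081-40198338), whose protein is either cytosolic aconitase or an iron regulatory protein, was at 21.7 ± 1.19 CPM in old uninjured muscle and 28.9 ± 3.37 CPM in old vehicle muscle at day 7 (SD, n = 4; log2 0.42, SE 0.16, edgeR adjusted p = 0.0203). The groups did not overlap, and the call was lost without day 7 library 7 (0.0867), without old uninjured library 9 (0.0579) and with no filter (0.0524). At day 35 it was 29.9 ± 5.27 CPM in old vehicle muscle, again above every old uninjured library but short of the threshold (log2 0.46, edgeR adjusted p = 0.083). That adjusted p was 0.0456 without day 35 library 6 and 0.305 without day 35 library 8. When only those groups were fitted, 4 members passed there, namely Fth1, Ftl1, Aco1 and Ireb2, beside 1230 genes higher and 1370 lower. In young muscle it was lower at day 35 than at day 7 (log2 -0.37, adjusted p = 0.0441). Ireb2 (ENSMUSG00000032293, chr9:54863789-54912530), its partner, was called by edgeR with TMM scaling in 1 comparison, from 42.0 ± 3.51 CPM at day 7 to 56.0 ± 7.11 CPM at day 35 in old BI01 muscle (log2 0.42, adjusted p = 0.0115), and this turned to -0.46 with library size alone and lost its call without day 35 library 8 (0.052). DESeq2 also called it between the ages in uninjured muscle and, as did a fit of the compared groups only, in old BI01 muscle at day 35 against old uninjured muscle.

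No member was called between BI01 and vehicle at day 7 or day 35. edgeR called 0 of 10 and 0 of 9 members, and 0% of all genes at each time (0 genes). At an unadjusted p under 0.05 it held 1126 and 530 genes, and 2 and 0 members, while DESeq2 called 1 and 12 genes. The 2 members at day 7 were Trf, at 5.81, 6.54, 4.83 and 4.30 CPM with BI01 against 2.32, 2.96, 4.87 and 1.27 CPM with vehicle (log2 0.91, 95% interval 0.12 to 1.70, edgeR adjusted p = 0.741), and Steap3 (log2 0.38, 95% interval 0.05 to 0.71, adjusted p = 0.741). Hmox1 with BI01 had 37.6, 61.0, 29.5 and 21.9 CPM at day 7. Its log2 difference from vehicle was -1.13 (95% interval -2.41 to 0.15) and became 0.12 without vehicle library 7. At day 35 the interval for Slc11a2 was -0.46 to 0.04 and that for Trf -0.39 to 1.39. Tfrc at day 35, not tested, differed by -0.22. These intervals leave room for changes of more than 2-fold in Hmox1 and Trf, so a missed threshold does not show that BI01 left them alike.

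Other iron genes were taken from lists of pathway members. A list of 12 genes of uptake and reduction held importers and ferrireductases, but also the ferroxidases Cp, Heph and Hephl1, which are not importers. Of these 12, 8 were higher and 1 lower at day 7 in young muscle, and 9 were higher and 0 lower in old vehicle muscle. Over all genes 33.3% were higher and 27.5% lower in young muscle, and 34.4% and 29.8% in old. The list's median log2 fold changes were 1.38 and 1.47, beside 0.17 and 0.14 over all genes. Library size alone gave 10 and 11 higher and 0 lower. Steap2, a metalloreductase, went from 0.679 ± 0.490 to 7.40 ± 0.567 CPM in young (SD, n = 4; log2 3.46, edgeR adjusted p = 2.13e-07) and from 0.824 ± 0.618 to 11.6 ± 4.96 CPM in old muscle (log2 3.76). Slc22a17, a receptor for lipocalin 2, rose as well (log2 3.92 and 2.31). Of 4 genes of ferritin turnover and iron chaperoning, 4 fell in young and 2 in old muscle at day 7, among them Fbxl5, which degrades iron regulatory protein (log2 -0.70 and -0.81), and, in young muscle, Ncoa4, the ferritin autophagy receptor (log2 -0.54). With library size alone 3 of these 4 genes were called higher instead at each age, and Fbxl5 (0.17 and 0.18) and Ncoa4 (0.35) turned.

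Mitochondrial iron and iron-sulphur cluster genes were mostly lower at day 7, 12 of 17 in young muscle (1 higher) and 14 of 17 in old vehicle muscle. The median log2 fold changes were -0.86 and -1.55. Over all genes 27.5% were lower in young and 29.8% in old muscle, the background for the next lists as well. Slc25a28, a mitochondrial iron importer, went from 52.4 ± 2.05 to 11.4 ± 3.4 CPM in young muscle (SD, n = 4; log2 -2.21, edgeR adjusted p = 5.82e-12). In old muscle Cisd1 (log2 -2.35), Bola3 (-2.19) and Isca1 (-2.11) had the largest changes. Library size alone left 1 lower and 2 higher in young muscle and 9 lower and 2 higher in old. Of 9 haem synthesis genes 5 fell in young and 7 in old muscle, including Cpox, of the middle of the pathway (log2 -1.71 and -1.77), and Fech, which inserts iron into haem (-0.76 and -1.52). Library size alone split them into 4 higher and 1 lower in young muscle and 2 and 2 in old, with Fech at 0.10 in young. Hfe2, the haemojuvelin gene, known in muscle and liver, went from 711 ± 143 to 217 ± 66.6 CPM in young muscle (log2 -1.71) and from 851 ± 34.6 to 142 ± 51.1 CPM in old (log2 -2.58, edgeR adjusted p = 1.63e-10). Of the 8 tested genes of its list, systemic regulators, 4 fell in young and 5 in old muscle (3 and 2 with library size alone, with 3 and 4 higher). They included Smad7, an inhibitor of BMP signalling (log2 -1.78 in young), and Smad6, another (-2.14 in old), and Bmp6, an iron-responsive ligand in the liver (-1.50 in young).

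Of 9 tested genes of haem and haemoglobin handling, 3 rose and 1 fell at each age, a share of risers near the 33.3% and 34.4% of all genes. They included Lrp1, a receptor for haemopexin and many other ligands, up at log2 2.76 in young and 3.91 in old muscle, Blvrb, a biliverdin reductase, up at 2.14 and 1.94, and, on the other side, the haem transporter Slc48a1 down in young muscle (log2 -1.09, edgeR adjusted p = 2.63e-07). With library size alone 6 were higher and 0 lower at each age, and Slc48a1 was not called (0.313). A list on lipid peroxides held defence genes such as Gpx4, but also Acsl4, Lpcat3 and Alox15, which promote such peroxides. Its counts therefore do not give a direction of defence. Of its 6 tested genes, 1 rose and 2 fell in young muscle and 2 rose and 3 fell in old. Gpx4, which reduces lipid peroxides, was down at log2 -0.89 and -1.56, the first of which became -0.02 with library size alone and was not called. Chac1, which degrades glutathione, went from 162 ± 60.4 to 2.15 ± 1.02 CPM in young muscle (SD, n = 4; log2 -6.24, adjusted p = 4.31e-05).

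Hmox1 is a textbook target of the activator NRF2 (Nfe2l2) and of the haem-sensing repressor BACH1. A list of 10 genes of that response held targets such as Srxn1, but also Nfe2l2 itself, Bach1 and the NRF2 inhibitor Keap1. Its counts therefore do not give a direction of the response. Of these 10 genes, 7 were lower and 0 higher in old than in young uninjured muscle, beside 7.65% of all genes lower. Their median log2 was -0.73, beside 0.09 over all genes. Library size alone left 4 of the 10 lower. Nfe2l2 itself had 150, 67.7, 126 and 53.2 CPM in young and 28.0, 38.0, 33.3 and 39.7 CPM in old uninjured muscle (log2 -1.51, SE 0.22, edgeR adjusted p = 7.04e-05). Srxn1, an antioxidant reductase, had 398, 57.5, 294 and 42.6 CPM in young and 28.6, 30.4, 30.3 and 44.4 CPM in old muscle (log2 -2.56, adjusted p = 8.17e-04). As with Hmox1, libraries 1 and 3 were the highest of the young group. Without both, 1 of the 10 genes, Nfe2l2, was still called (log2 -0.79, adjusted p = 0.0437), and Srxn1 was not.

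With TMM scaling, at most 1 other listed iron gene in each direction per list was called between the ages in uninjured muscle, beside 5.79% of all genes higher and 7.65% lower. Library size alone called 5 of the 17 mitochondrial iron genes higher. Slc39a14, a metal importer, was lower in old muscle (35.3 ± 19.2 CPM in young, 15.9 ± 1.82 CPM in old; SD, n = 4; log2 -1.15, edgeR adjusted p = 0.0192). Iscu, the scaffold for iron-sulphur clusters, was higher (59.6 ± 20.2 against 103 ± 8.07 CPM, log2 0.79, adjusted p = 0.0167). Neither was called without young uninjured libraries 1 and 3 (adjusted p of 0.789 and 0.42). The call of Iscu was also lost without library 3 alone (0.0992). That of Slc39a14 was lost without young library 1 (0.13) or 3 (0.0952), without old library 7 (0.0664) or 8 (0.0532), and with library size alone (0.0748).

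At day 7 in young muscle 9 of these 10 NRF2 and BACH1 genes fell, 8 without libraries 1 and 3 and 6 with library size alone. Nqo1, a quinone reductase, went from 32.4 ± 8.4 to 1.34 ± 0.489 CPM (SD, n = 4; log2 -4.61, SE 0.34). Old vehicle muscle had 7 lower, but with RLE size factors 4 were lower and 1 higher, and with library size alone 2 were lower and 3 higher. Nqo1 there went from 28.9 ± 4.09 to 1.38 ± 0.925 CPM (log2 -4.36). Keap1, which holds NRF2 for degradation, fell by 1.52 on the log2 scale. With TMM scaling, 0 of the 10 were called higher in old vehicle muscle. Whether these genes bear on the level of Hmox1 was not tested.

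**Figure D4:**
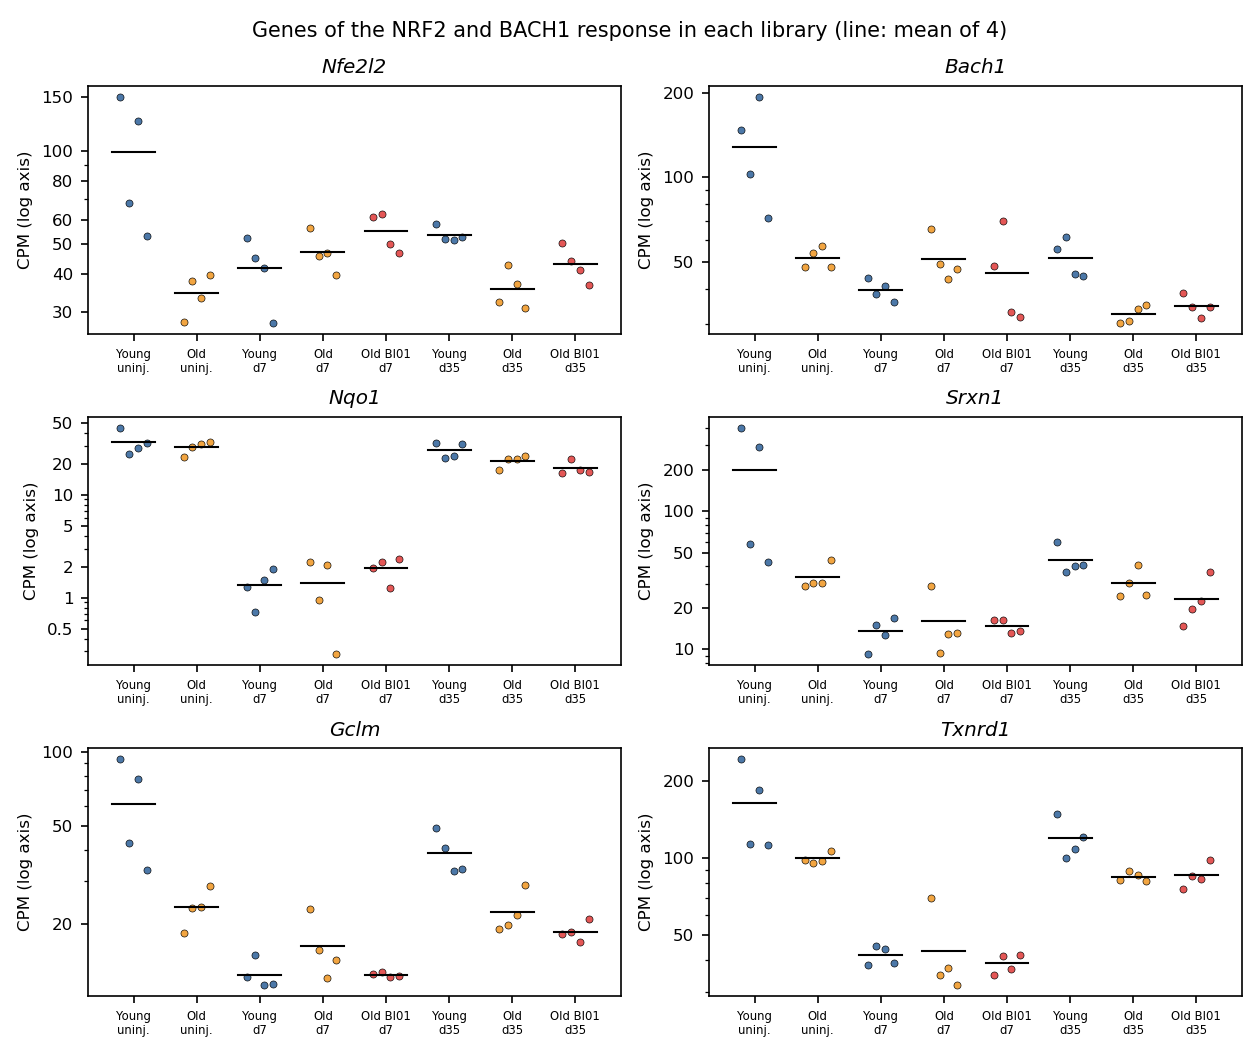
Level in CPM (log axis) of 6 genes of the NRF2 and BACH1 response in each of 4 libraries (points) of 8 groups, with the group mean as a line. Young uninjured libraries 1 and 3 are the highest for Nfe2l2 (150 and 126 CPM) and Srxn1 (398 and 294 CPM), and Nqo1 is below 2.4 CPM in every day 7 library.

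Markers of other cell types moved with the day 7 changes and, for some lists, with age. All 10 macrophage markers were called higher at day 7 at each age, and their summed level went from a median of 70.2 CPM (range 25.4 to 157) to 1357 CPM (770 to 1442) in young and from 93.3 CPM (35.4 to 233) to 2032 CPM (1011 to 2847) in old vehicle muscle. None of the 10 was at 0 in any library. All 8 dividing-cell markers, a state in which Tfrc is known to be high, were also called higher, from a median sum of 3.46 CPM (1.01 to 13.4, with up to 5 of the 8 at 0 in a library) to 166 CPM (100 to 201) in young and from 4.52 CPM (3.81 to 8.24) to 185 CPM (121 to 405) in old muscle. At day 35 they were at a median of 4.48 CPM in young and 6.03 CPM in old vehicle muscle. Of the 6 red blood cell markers tested, 3 in young and 6 in old vehicle muscle were lower at day 7, and median sums were 20.3 and 34.3 CPM against 120 and 196 CPM before injury. Of 7 fibroblast and progenitor markers 6 rose at day 7 at each age, from a median sum of 334 to 9565 CPM in young and from 340 to 9226 CPM in old vehicle muscle. All 5 regenerating fibre markers rose, from 82.6 to 6883 CPM and from 295 to 6387 CPM, and so did 5 of 6 satellite cell markers at each age. Mature fast fibre markers fell from a median sum of 253663 to 78697 CPM in young muscle and from 189116 to 49438 CPM in old. Between old and young uninjured muscle, 4 of the 5 regenerating fibre markers were higher in old, with sums of 92.0 to 1003 CPM against 61.7 to 95.6 CPM, as were 2 of 4 neutrophil markers (median sums of 4.62 and 0.631 CPM). The part of these cells in the changes of the iron genes was not tested.

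**Figure D5:**
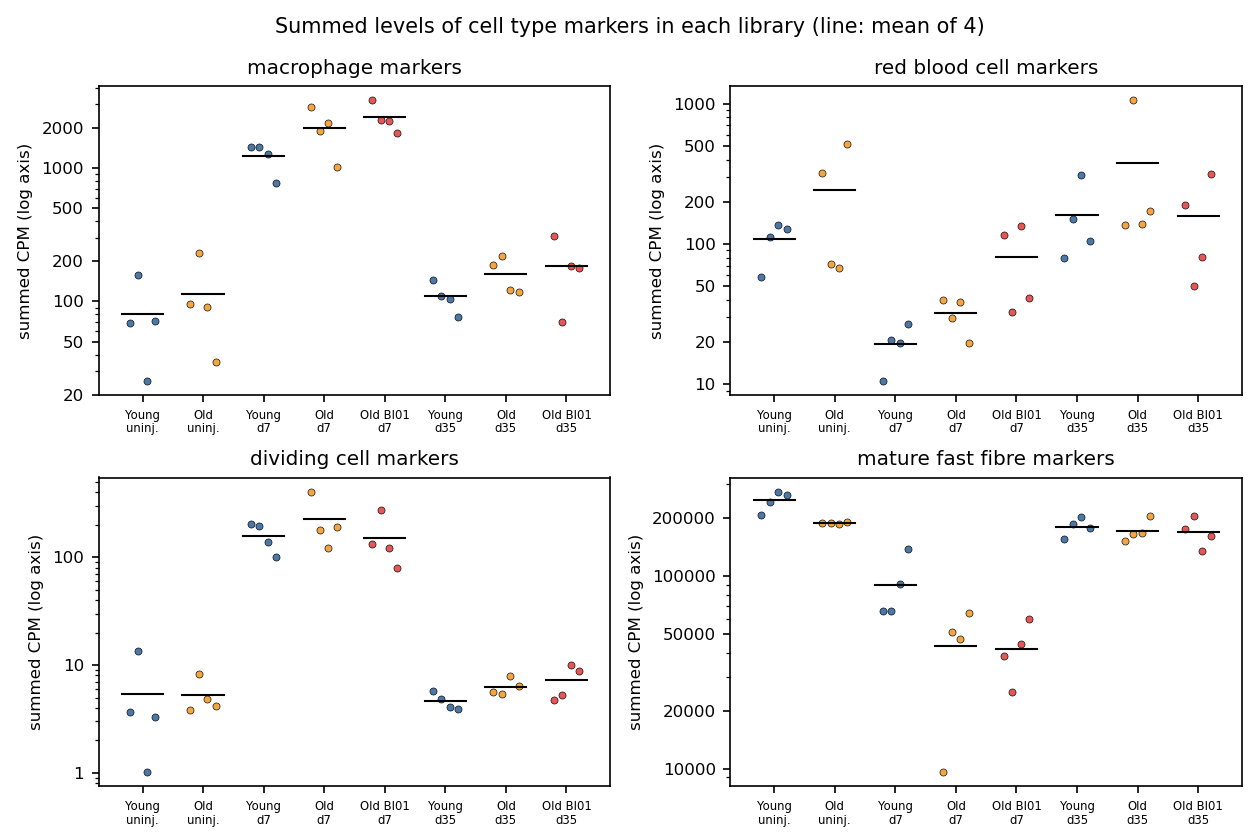
Summed CPM (log axis) of 4 marker lists in each of 4 libraries (points) of 8 groups, with the group mean as a line. Macrophage and dividing-cell sums are highest in the day 7 groups and fast fibre sums lowest there, with old vehicle day 7 library 7 at 9560 CPM.

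Over the 32 libraries the transcripts whose log2 level followed Tfrc most closely were Mkl1 (Pearson r = 0.904), Efr3b (0.884), Tnfaip2 (0.880), Rflnb (0.862) and Pcdh12 (0.862) (only genes averaging 5 CPM or more were searched). These values describe libraries that share groups and scaling. The search used all 32 libraries, with the day 35 vehicle libraries that chose Tfrc among them. That the group means below follow those of Tfrc was therefore set by the choice and is no separate result. Mkl1, a coactivator of serum response factor, had group means of 10.3 CPM in young uninjured, 12.5 CPM in young day 35, 53.6 CPM in old uninjured and 71.3 CPM in old vehicle day 35 muscle. Tnfaip2 had 16.9, 34.4, 73.7 and 150 CPM in the same groups.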

How the data were processed

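The deposited table holds raw read counts per gene of 32 RNA-seq libraries. The authors aligned reads with HISAT2 to mm10, per the submitters' processing notes. Strandedness, the annotation release and the counting tool: not given in the sources used here. Columns were matched to groups by name. The 10 genes and all lists were chosen with earlier results of these data known.

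Counts were filtered (filterByExpr), scaled by TMM and tested with edgeR 4.0.16 in R 4.3.3 (robust quasi-likelihood, 1 mean per group, all 32 libraries, Benjamini-Hochberg over 17121 genes, threshold 0.05) in 13 comparisons of 2 groups and 3 differences of differences. CPM and FPKM were computed from the counts and the table's gene lengths. Alternatives used other scalings, filters, limma 3.58.1, DESeq2 1.42.0, the compared groups only, a block on the column number at day 35, and libraries left out. The code was tested on simulated data. All 10 genes are described; of each list, up to 3 called genes with the largest change and at least 1 CPM could be named per comparison. Coordinates are those of the table. Hairpins were read from GENCODE transcripts of a later build, by transcript position only. No library pair agreed within sampling noise.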

Additional observations from a re-analysis of the deposited data

Results flagged for a closer look

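Of 80 groups of 4 libraries checked (10 genes in 8 groups), 5 held a library far from the other 3, where chance alone marks about 1 in 20 such groups. Hmox1 was at 225 CPM in old vehicle day 7 library 7, and Aco1 at 34 CPM in the same library. Fth1 was at 477 CPM in young day 7 library 4, below its group. Ftl1 was at 104 CPM in young day 35 library 1, above its group, and at 61.8 CPM in old BI01 day 35 library 7, below its group.

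The change from uninjured muscle to day 7 differed between old vehicle and young mice for 3 genes by edgeR's interaction test: Tfrc (log2 -2.44), Hmox1 (log2 3.60) and Steap3 (log2 -0.78). All 3 share the young uninjured libraries, and 0 of them passed without libraries 1 and 3.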

How the results depend on the processing

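The replicate numbers of the sample titles could not be matched to columns, and only the columns of the 35-day collection share numbers in full within an age (young 1 to 4, old 6 to 9). With that column number as a replicate block, added after seeing the data, 2448 genes in place of 2691 were called at day 35 in young muscle, 843 in place of 966 in old vehicle muscle, 1171 in place of 1386 in BI01 day 35 against old uninjured muscle, and 0 for BI01 at day 35 and for the age difference in the day 35 response. No member's call changed. Same-numbered columns deviated together at r of -0.032 to 0.161 in young and 0.0089 to 0.109 in old vehicle muscle, and 3 and 2 of 4 columns correlated best with their own number. These values do not settle whether the numbers pair libraries, and the main fit used no block. If they do, the test of Tfrc between the ages in uninjured muscle is not independent of the day 35 libraries that chose it. No block was fitted for the other comparisons because their groups share at most 3 of 4 numbers, and those shared with day 7 columns belong to different collections.

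Scaling by library size alone turned the direction of 10 results, for 6 genes. At day 7 in young muscle Fth1 became 0.0081, Fech 0.10, Fbxl5 0.17 and Ncoa4 0.35 on the log2 scale. At day 7 in old vehicle muscle Slc11a2 became 0.50 and Fbxl5 0.18. From day 7 to day 35, Fth1 became -0.26 and Slc11a2 -0.49 in old vehicle muscle, and Fth1 -0.35 and Ireb2 -0.46 in BI01 muscle. This scaling also called 712 genes in place of 416 between the ages at day 7, and 1 member (Tfrc) in BI01 day 35 against old uninjured muscle in place of 0. It moved the split of all calls at day 7 from 5698 higher and 4715 lower to 10199 and 1487 in young muscle, and from 5885 and 5110 to 10770 and 1760 in old. For day 35 against uninjured young muscle the split went from 1209 and 1482 to 2593 and 707, and between the ages at day 7 from 43 and 373 to 610 and 102. From day 7 to day 35 it went from 4446 and 5018 to 1682 and 8616 in young, from 4713 and 5372 to 1575 and 10638 in old vehicle, and from 4479 and 5032 to 1365 and 10156 in BI01 muscle. In the age difference of the day 7 response it went from 552 and 767 to 657 and 560, and to 783 and 635 with RLE size factors. The cause of the other changes below was not tested.

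Between the ages in uninjured muscle, 2302 genes became 1524 with no filter and 1411 with only the compared groups fitted, and 3 members became 1 with limma voom. Without young uninjured libraries 1 and 3, added after seeing the data, they became 134 and 0. At day 35 against uninjured muscle, young calls went from 2691 to 388 without those libraries, where Hmox1 turned to 0.088, and DESeq2 called 1 member in place of 0. In old vehicle muscle 966 genes and 0 members became 2600 and 4 with the compared groups only. Between the ages at day 7, 416 genes became 171 with no filter, 1263 with limma voom, 825 with DESeq2 and 0 with the compared groups only. Between the ages at day 35, 601 became 922 with DESeq2 and 1950 with the compared groups only. For BI01, DESeq2 called 1 gene at day 7, 12 at day 35 and 2 for the difference between these effects, in place of 0. In BI01 day 35 against old uninjured muscle, 2 members were called by DESeq2 and 2 with the compared groups only (2380 genes in place of 1386). The age difference in the day 7 response had 817 genes with no filter, 2013 with DESeq2, 173 genes and 1 member with the compared groups only, and 62 and 0 without young uninjured libraries 1 and 3, in place of 1319 and 3. That at day 35 had 2 genes with library size alone, 1 with no filter, 1 with limma voom, 14 with DESeq2 and 1 with the compared groups only, in place of 0.

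Leaving out 1 library at a time, calls ranged from 1013 to 2850 genes and 1 to 4 members for age in uninjured muscle, 1309 to 3103 and 0 to 1 for day 35 in young, 556 to 885 and 0 to 1 for day 35 in old vehicle muscle, 798 to 1367 and 0 to 1 for BI01 day 35 against old uninjured muscle, and 573 to 2152 and 1 to 3 for the age difference in the day 7 response. For genes alone the ranges were 7 to 1012 for age at day 7, 330 to 442 for age at day 35, 0 to 54 for BI01 at day 7 and 0 to 40 for the age difference in the day 35 response. The BI01 difference of Hmox1 at day 7 ranged from -1.47 to 0.12, the latter without vehicle library 7. Low counts limit Trf.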
